A study of Mus musculus with 32 samples.

Results

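Cystine import and glutathione synthesis were followed through 7 genes: *Slc7a11*, *Slc3a2*, *Gclc*, *Gclm*, *Gss*, *Gsr* and *Gpx4*. They were chosen by name, as the carrier that brings cystine into the cell and the enzymes that make, recycle and spend glutathione, and all 7 were found among the 11818 genes of the count table. The choice was made with earlier results of these data known, so counts of members beside the share of all genes are a description. With osteoglycin (OGN) *Slc7a11* rose in epithelial cells and in fibroblasts, its partner chain *Slc3a2* rose in epithelial cells, and *Gclc* rose in fibroblasts, where the groups overlapped and the call was lost without mouse 2, 3 or 4. *Gclm*, *Gss*, *Gsr* and *Gpx4* did not pass the test with OGN in either population, though some alternative fits called *Gsr* in fibroblasts.

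Glutathione is a tripeptide of glutamate, cysteine and glycine, and it is the main soluble thiol that protects lung epithelium against oxidants. Cysteine usually limits its synthesis, and many cells obtain it by importing cystine through system xc-, a pair of SLC7A11 (xCT) and the heavy chain SLC3A2 (CD98hc, 4F2hc) that exchanges cystine for glutamate. Glutamate-cysteine ligase (catalytic subunit GCLC, modifier subunit GCLM) joins glutamate and cysteine, GSS adds glycine, GSR reduces oxidized glutathione with NADPH, and GPX4 uses glutathione to reduce lipid hydroperoxides. On GRCm38.p6 *Slc7a11* lies on chromosome 3 from 50364936 to 50499087, *Slc3a2* on chromosome 19 from 8706882 to 8723369, *Gclc* on chromosome 9 from 77754535 to 77794489 and *Gclm* on chromosome 3 from 122245487 to 122267215. *Gss* lies on chromosome 2 from 155563181 to 155592810, *Gsr* on chromosome 8 from 33653238 to 33698162 and *Gpx4* on chromosome 10 from 80047166 to 80056439. Several of these genes are known targets of NRF2, and *Slc7a11* and *Slc3a2* are also known targets of ATF4, the factor of the amino acid response.

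The libraries come from lung organoid cultures of naive C57BL/6J mice aged 8 to 14 weeks. CD31-/CD45-/Epcam+ lung cells, mostly alveolar type II cells, were mixed with an equal number (300000 of each) of CCL206 mouse lung fibroblasts, grown in Matrigel and treated for 72 h. The 4 treatments were vehicle, extracellular vesicles (EVs, 1000000000 particles per mL), soluble factors (SFs, 30 µg/mL) and recombinant human OGN (10 µg/mL), and the EVs and SFs came from MRC5 human fetal lung fibroblasts. After treatment each culture was separated again with Epcam beads into an Epcam+ and a CCL206 fraction, so 4 mice, 4 treatments and 2 fractions gave 32 libraries in 8 groups of 4. All cultures, vehicle included, held fibroblasts whose division had been stopped with mitomycin C. CCL206 is 1 established cell line, so the 4 libraries of a fibroblast group differ in the mouse that gave the epithelial cells and not in the fibroblast donor. Library totals lay between 1805914 and 17675454 counts, with a median of 5901652, and each member had at least 42 counts in every library.

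The promoters of *Slc7a11* and *Gclm* are shown because, of the 5 members with a RefSeq promoter window (*Slc7a11*, *Slc3a2*, *Gclm*, *Gss* and *Gpx4*), these were the ones with a match to either motif searched. The motifs were the antioxidant response element core TGACNNNGC, bound by NRF2 with small MAF proteins, and the amino acid response element TGATGNAA, bound by ATF4 with C/EBP proteins, each on both strands of 300 bases around the start site. Below are the 250 bases before the start site (build GRCm38.p6, 5′ to 3′ on the strand of the gene), with the matches in capitals.
Slc7a11, chr3:50443614-50443863, minus strand: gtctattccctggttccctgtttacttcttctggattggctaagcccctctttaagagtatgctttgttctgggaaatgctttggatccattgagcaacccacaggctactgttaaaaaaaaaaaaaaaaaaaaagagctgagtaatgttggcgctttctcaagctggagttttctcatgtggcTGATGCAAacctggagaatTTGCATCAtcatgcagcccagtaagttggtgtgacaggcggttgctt
Gclm, chr3:122245307-122245556, plus strand: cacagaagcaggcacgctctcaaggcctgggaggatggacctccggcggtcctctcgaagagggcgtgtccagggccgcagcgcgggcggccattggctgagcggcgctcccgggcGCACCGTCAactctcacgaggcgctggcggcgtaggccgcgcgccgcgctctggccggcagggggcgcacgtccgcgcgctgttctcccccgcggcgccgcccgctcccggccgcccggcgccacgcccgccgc
The *Slc7a11* window held the amino acid element 2 times, as TGATGCAA on the strand of the gene at position -66 and on the other strand at position -47, and the matches do not overlap. The *Gclm* window held 1 antioxidant element, TGACGGTGC on the other strand at position -134. An amino acid element was present in 3.97% of all 32851 promoter windows and in 2.16% of the windows of genes in the count table, and an antioxidant element in 12.4% and 14.2%. A match describes letters in a window and no binding was measured here.

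The labels of the fractions were checked against marker genes. The summed level of 9 epithelial and alveolar type II markers lay between 9815 and 16098 CPM (counts scaled to the TMM-normalized library size) in Epcam+ libraries, and between 1451 and 4663 CPM in CCL206 libraries. The summed level of 8 fibroblast markers lay between 6846 and 10425 CPM in CCL206 libraries and between 1369 and 2555 CPM in Epcam+ libraries, so each fraction carried RNA of the other population. Of 6 macrophage markers, *Ptprc*, *Adgre1*, *Marco* and *Itgax* were not among the genes of the table, and the sum of *Cd68* and *Lyz2* was at most 402 CPM. No endothelial marker was in the table. The table lists only genes with 1 count or more in each of the 32 libraries, so a missing marker does not show that such cells were absent. The vehicle-treated Epcam+ library of mouse 1 stood apart with 663 CPM of surfactant protein C (*Sftpc*), where the median of that group was 4871 CPM, and the fits without mouse 1 are given wherever a call on a member was lost.

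Between vehicle-treated Epcam+ and CCL206 libraries 6 of 7 members passed the test (adjusted p under 0.05), where 71.4% of all 11749 genes tested did. The 5 members *Slc7a11*, *Gclc*, *Gclm*, *Gss* and *Gsr* were higher in Epcam+ cells, where 35.6% of all genes were, and *Slc3a2* was lower. *Slc7a11* had 135, 111, 143 and 115 CPM in Epcam+ cells of mice 1 to 4 and 33.0, 25.1, 26.5 and 26.3 CPM in the fibroblasts of the same cultures. These groups did not overlap (log2 fold change 2.18 ± 0.10 SE, adjusted p = 1.27e-08). *Gsr*, the reductase, stood at 254 ± 12.4 CPM (SD, n = 4) in Epcam+ cells and 60.4 ± 6.14 CPM in fibroblasts, and *Gclc*, the catalytic subunit, at 1199 ± 159 and 305 ± 80.8 CPM. Their log2 fold changes were 2.07 (adjusted p = 7.64e-09) and 2.00 (adjusted p = 1.75e-07). *Gclm* and *Gss* were also higher in Epcam+ cells, by 0.98 (adjusted p = 7.63e-07) and 0.91 (adjusted p = 1.14e-05) on the log2 scale.

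*Slc3a2* went the other way, with 186.5 ± 15.2 CPM in Epcam+ cells and 231 ± 40.6 CPM in fibroblasts (log2 fold change -0.30, adjusted p = 0.0134). The 2 groups overlapped, and the call was lost without mouse 1 (adjusted p = 0.0529) or without mouse 2 (adjusted p = 0.123). *Gpx4* did not pass (log2 fold change 0.28, 95% interval 0.02 to 0.54, adjusted p = 0.0552).

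Per kilobase of transcript, which allows genes to be set beside each other, *Gclc* and *Gpx4* had the highest levels of the 7 in vehicle-treated Epcam+ cells, at 348 ± 46.1 and 319 ± 47.0 CPM per kb (SD, n = 4), and these overlap within their spread. *Gsr* followed with 95.03 ± 4.65, *Slc3a2* with 73.0 ± 5.93, *Gss* with 32.8 ± 4.11, *Gclm* with 27.1 ± 2.91 and *Slc7a11* with 13.6 ± 1.68 CPM per kb. The libraries of *Gss* and *Gclm* overlap. In vehicle-treated fibroblasts *Gpx4* led with 264 ± 38.6, followed by *Slc3a2* with 90.6 ± 15.9 and *Gclc* with 88.5 ± 23.5 CPM per kb, which cannot be ordered at this spread. *Gsr* had 22.6 ± 2.30, *Gss* 17.4 ± 3.24 and *Gclm* 13.6 ± 0.701, each overlapping the next, and *Slc7a11* was again the lowest, at 3.01 ± 0.384 CPM per kb.

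**Figure D1:**
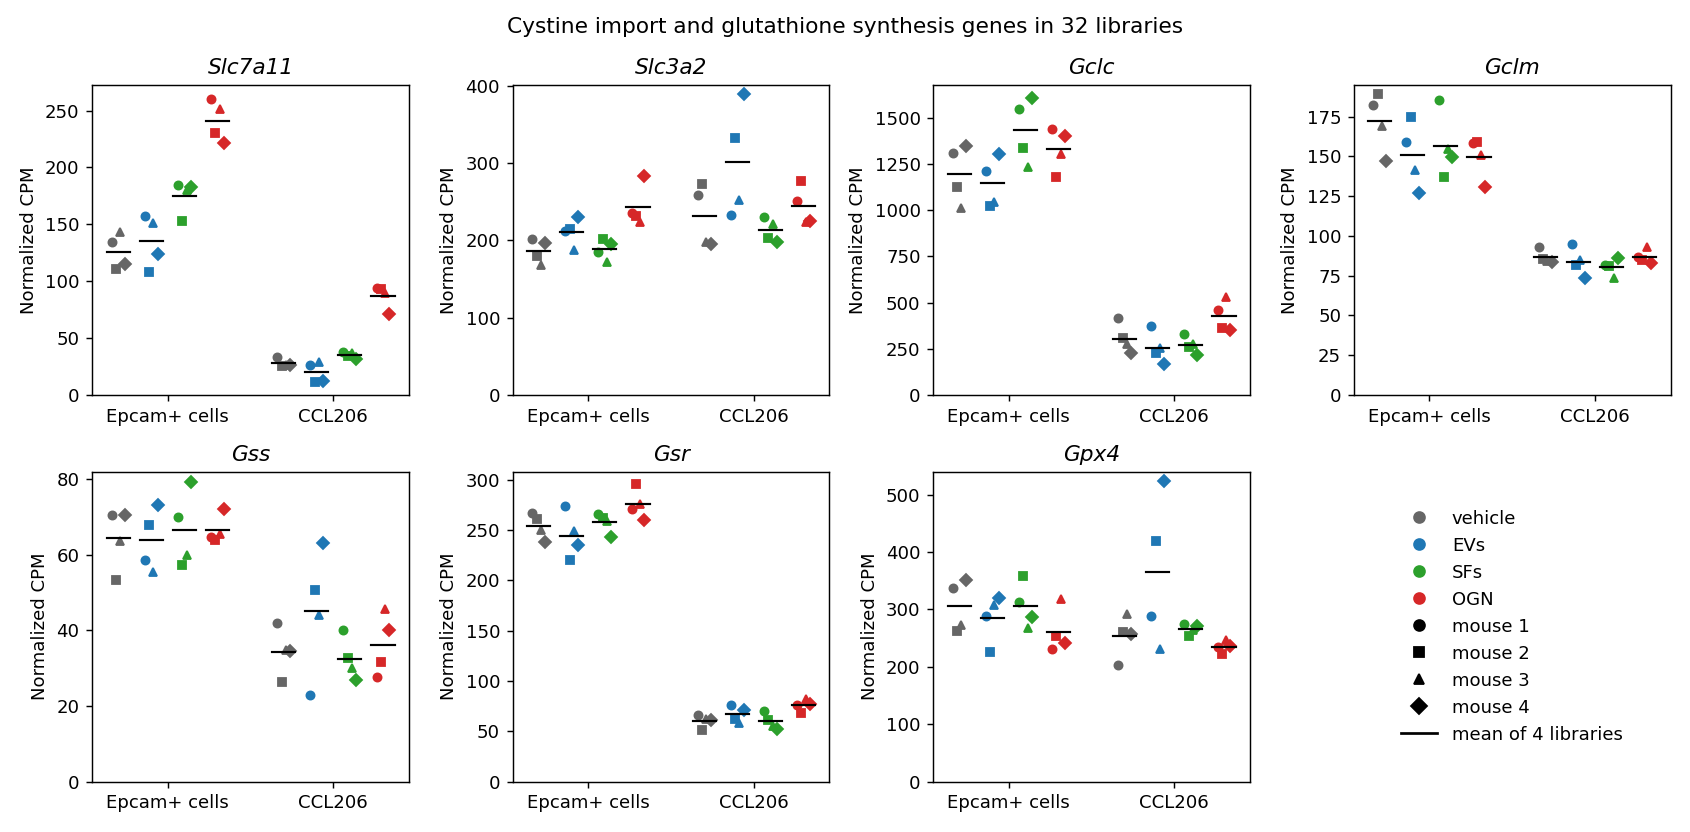
Normalized CPM (y axis, from 0) of the 7 genes in each of the 32 libraries, by fraction (x axis) and treatment (colour), with 1 marker shape for each mouse and a line at the mean of 4. *Slc7a11* with OGN lies above all vehicle-treated libraries of the same fraction, and *Gpx4* in EV-treated fibroblasts is high in mice 2 and 4.

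The first question was which members OGN changed in the epithelial cells. In Epcam+ cells OGN raised 2 of 7 members, *Slc7a11* and *Slc3a2*, and lowered none, where 2.7% of the 11716 genes tested were called. Both encode the cystine carrier. The paper had already reported both increases from these libraries, and the members were chosen with earlier results of these data known. The count of 2 of 7 beside 2.7% is therefore a description. With OGN *Slc7a11* stood at 260.2, 230.3, 252 and 222 CPM in mice 1 to 4, every value above the highest vehicle-treated library (143 CPM). The mean went from 126 ± 15.5 to 241 ± 18.0 CPM (SD, n = 4), a log2 fold change of 0.94 ± 0.08 (SE, adjusted p = 6.9e-08). All 13 alternative fits called it, with log2 fold changes between 0.91 and 0.99. The sum of *Cd68* and *Lyz2*, the measured macrophage markers (*Lyz2* is also made by alveolar type II cells), lay between 185 and 253 CPM with vehicle and between 298 and 402 CPM with OGN, and its part in the result was not tested.

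*Slc3a2*, the heavy chain, had 201, 180.1, 168 and 196 CPM with vehicle and 235, 232, 224 and 283 CPM with OGN. The groups did not overlap, and the value was higher with OGN in 4 of 4 mice (log2 fold change 0.38 ± 0.07, adjusted p = 0.00279). Of 13 alternative fits 12 called it, and 1 model over all 32 libraries did not (0.38, adjusted p = 0.112).

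The enzymes of synthesis and recycling did not pass in Epcam+ cells with OGN. *Gclc* was at 1331 ± 116 CPM against 1199 ± 159 with vehicle (log2 fold change 0.16, 95% interval 0.01 to 0.30, adjusted p = 0.316), and it was higher in 4 of 4 mice with overlapping groups. *Gclm* was at 150 ± 13.1 against 172 ± 18.5 CPM (-0.20, interval -0.37 to -0.02, adjusted p = 0.298) and lower in 4 of 4 mice. *Gss* (0.04, interval -0.16 to 0.24), *Gsr* (0.12, interval -0.03 to 0.26) and *Gpx4* (-0.22, interval -0.47 to 0.02) had intervals that contain 0. For these 5 genes an increase larger than 0.30 on the log2 scale lies outside the intervals.

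In CCL206 fibroblasts OGN raised *Slc7a11* and *Gclc*, 2 of 7 members, and lowered none, where 4.56% of the 11689 genes tested were called. *Slc7a11* stood at 94.1, 93.3, 89.5 and 71.4 CPM with OGN in mice 1 to 4 and at most at 33.0 CPM with vehicle, so the groups were far apart. The means were 87.1 ± 10.6 and 27.7 ± 3.54 CPM (SD, n = 4), a log2 fold change of 1.65 ± 0.18 (SE, adjusted p = 2.02e-05). It was called in all 13 alternative fits, with log2 fold changes between 1.56 and 1.73.

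*Gclc* had 416, 306, 274 and 225 CPM with vehicle and 458, 361, 532 and 352 CPM with OGN. It was higher with OGN in 4 of 4 mice, but the groups overlapped (log2 fold change 0.50 ± 0.12, adjusted p = 0.0273), and the OGN-treated library of mouse 3 was the highest of the 8. The call was lost without mouse 2 (0.59, adjusted p = 0.100), mouse 3 (0.35, adjusted p = 0.286) or mouse 4 (0.46, adjusted p = 0.128), and without the replicate block, the term for mouse (0.48, adjusted p = 0.298). The call held with only the 8 libraries compared (0.50, adjusted p = 0.0138) and with the transcript length trend removed (0.52, adjusted p = 0.00567). *Gsr* had 65.9, 51.6, 62.4 and 61.6 CPM with vehicle and 76.6, 68.2, 81.8 and 77.2 CPM with OGN. These groups did not overlap, but the test was not passed (0.33 ± 0.11, adjusted p = 0.106), and 5 of 13 alternative fits called it. Among the 5 were the fit of only the 8 libraries compared (0.34, adjusted p = 0.0114) and that with the length trend removed (0.335, adjusted p = 0.0431). Without the replicate block *Gsr* was not called (0.33, adjusted p = 0.143).

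*Slc3a2*, *Gclm*, *Gss* and *Gpx4* did not pass in OGN-treated fibroblasts. Their log2 fold changes were 0.08 (95% interval -0.23 to 0.39), 0.01 (-0.19 to 0.20), 0.08 (-0.43 to 0.58) and -0.11 (-0.48 to 0.27). The interval of *Gclm* is the narrowest of the 4 and that of *Gss*, the least abundant of them in CPM, the widest.

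Epithelial RNA in the CCL206 fraction bears on the fibroblast values of genes that are high in epithelial cells, and the share was therefore measured in each culture. *Cdh1*, E-cadherin, stood in the vehicle-treated CCL206 libraries at 16.2%, 9.08%, 9.94% and 6.11% of its level in the Epcam+ library of the same culture in mice 1 to 4, and in the OGN-treated cultures at 13.2%, 10.9%, 18.6% and 8.06%. The *Cdh1* share was higher with OGN in mice 2, 3 and 4, and mouse 3, where *Gclc* was highest, had the highest share. By *Epcam*, the marker of the sort, the share was smaller. It was 5.44%, 3.8%, 3.99% and 2.66% with vehicle in mice 1 to 4, and 6.75%, 3.57%, 8.71% and 2.95% with OGN. The *Epcam* share was higher with OGN in mice 1, 3 and 4, and no subtraction was made with it. The median share of the 9 epithelial markers lay between 7.24% and 24.4% with vehicle and between 11.3% and 30.2% with OGN. *Slc7a11* in CCL206 libraries was between 18.5% and 24.5% of its epithelial level with vehicle, within or near that range, and between 32.2% and 40.5% with OGN. It was above the marker median of the same culture in 4 of 4 mice with either treatment, with vehicle in mouse 1 by a small margin (24.5% against 24.4%). The Epcam+ library of that culture is the one that stood apart in *Sftpc*. *Cd68* and *Lyz2* also moved, from 49.9 to 121 CPM with vehicle to 104 to 218 CPM with OGN in CCL206 libraries, and their part in the fibroblast results was not tested.

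In an alternative that was added once the values were known, the *Cdh1* share of the epithelial level was subtracted from each CCL206 library. *Slc7a11* was then between 11.1 and 19.3 CPM with vehicle and between 42.7 and 68.3 CPM with OGN, without overlap, and the ratio of the means was 3.88. *Gclc* was between 143 and 204 CPM with vehicle and between 233 and 289 CPM with OGN, with a ratio of 1.42. With the median share of the 9 markers in place of *Cdh1* the groups overlapped, at 0.2 to 18.0 and 13.5 to 59.0 CPM for *Slc7a11* and at 96.9 to 142 and 118 to 194 CPM for *Gclc*. Within each mouse the remainder was higher with OGN for both genes. With vehicle *Slc7a11* was left at 0.2, 9.01, 5.9 and 18.0 CPM in mice 1 to 4. With OGN it was left at 32.55, 59.0, 13.5 and 46.4 CPM. The 0.2 CPM rests on the Epcam+ library of mouse 1 that stood apart in *Sftpc*, at 663 CPM. Vehicle-treated CCL206 libraries had at least 992 CPM of *Sftpc*. The effect of that library on the share was not tested.

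The effect of OGN on a member was also compared between the fractions in 1 model over 32 libraries. None of the 7 members passed this test, where 0.551% of the 11805 genes tested did. *Slc7a11* had the largest difference, an OGN effect that was 0.71 ± 0.18 (SE) higher in fibroblasts on the log2 scale (unadjusted p = 0.000714, adjusted p = 0.0887). It passed in 3 of 11 alternatives, namely DESeq2 (0.73, adjusted p = 0.00702), the 16 vehicle- and OGN-treated libraries alone (0.71, adjusted p = 0.0149) and the fit with the transcript length trend removed (0.72, adjusted p = 0.0011). For *Slc3a2*, called in Epcam+ cells only, the difference was -0.30 (95% interval -0.64 to 0.04, unadjusted p = 0.078), and for *Gclc*, called in fibroblasts only, it was 0.34 (0.05 to 0.64, adjusted p = 0.57). A difference between the fractions is therefore not shown for either gene.

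**Figure D2:**
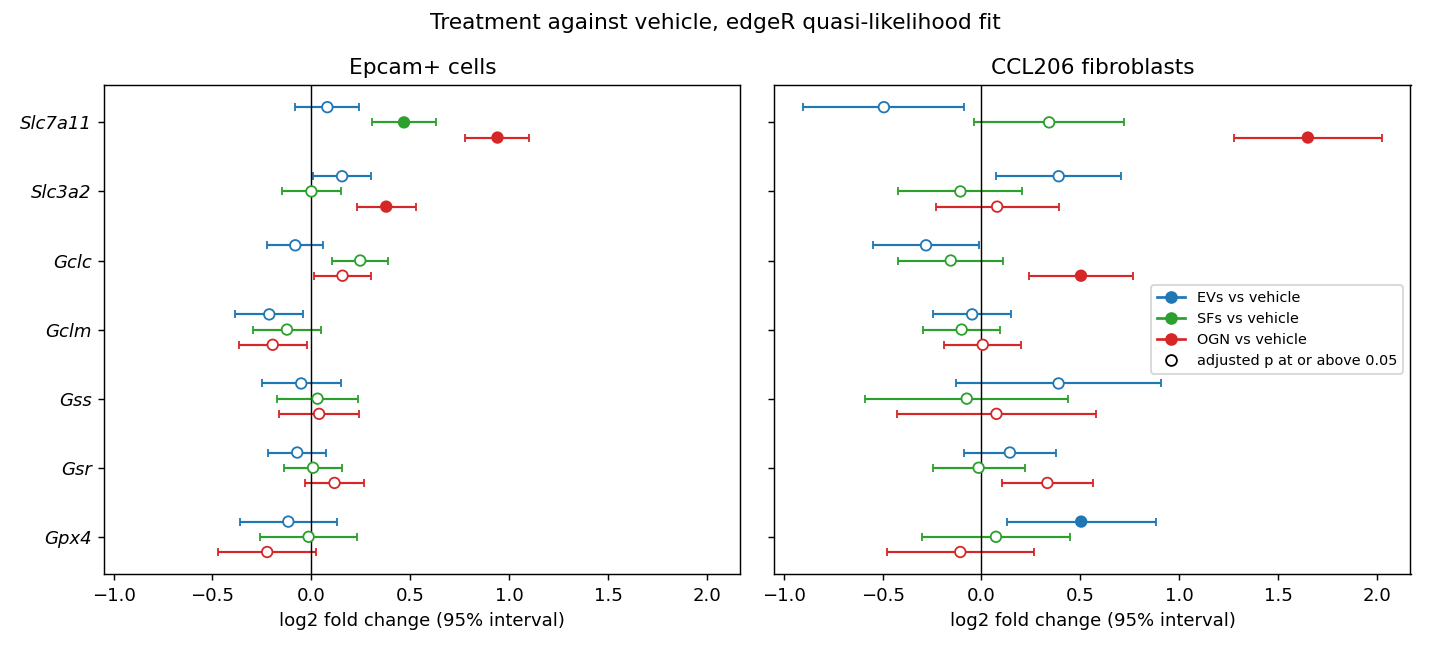
The log2 fold change of each treatment against vehicle (x axis, with 95% intervals) for the 7 genes in Epcam+ cells (left) and CCL206 fibroblasts (right), with filled points where the adjusted p is under 0.05. *Slc7a11* with OGN stands farthest from 0 in both panels, at 0.94 and 1.65.

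SFs, the soluble fraction of the MRC5 secretome, raised 1 member, *Slc7a11*, in Epcam+ cells, where 0.23% of genes were called. It had 184, 153, 180.1 and 183 CPM in mice 1 to 4, every value above the vehicle-treated libraries (log2 fold change 0.47 ± 0.08 SE, adjusted p = 0.00648). The call was lost without the replicate block (0.47, adjusted p = 0.231), in 1 model over all 32 libraries (0.48, adjusted p = 0.267) and without mouse 1 (0.48, adjusted p = 0.144). The sum of *Cd68* and *Lyz2* lay between 185 and 253 CPM with vehicle and between 234 and 364 CPM with SFs, and the median sum of the 4 airway markers *Scgb1a1*, *Foxj1*, *Krt5* and *Trp63* was 3533 and 2179 CPM; their part in the result was not tested. *Gclc* was higher with SFs in 4 of 4 Epcam+ libraries and did not pass (0.25, adjusted p = 0.266), and it was called by DESeq2 (0.24, adjusted p = 0.00481). In SF-treated fibroblasts none of the 7 passed, where 0.0599% of genes did (621 genes at an unadjusted p under 0.05, none of them a member). *Slc7a11* was at 35.2 ± 2.65 CPM there against 27.7 ± 3.54 with vehicle, higher in 4 of 4 mice (0.34, 95% interval -0.04 to 0.72, adjusted p = 0.984). No member passed edgeR's test of a difference in SF effect between the fractions, where 0% of genes passed and 590 had an unadjusted p under 0.05. *Gclc* was among these 590 (difference -0.42, unadjusted p = 0.0077).

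EVs did not change a member in Epcam+ cells by the test, where 0.888% of genes were called and 1195 had an unadjusted p under 0.05. *Gclm* (log2 fold change -0.21) and *Slc3a2* (0.16) were the 2 members with an unadjusted p under 0.05, at 0.0171 and 0.0409, and DESeq2 called none. *Slc7a11* in EV-treated Epcam+ cells had 157, 108, 151 and 124 CPM, which overlaps the vehicle-treated libraries (0.08, 95% interval -0.08 to 0.24).

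In fibroblasts EVs went with many calls, 36% of all genes, and 1 of 7 members, *Gpx4*, was higher. *Gpx4* had 288, 418, 232 and 524 CPM in EV-treated libraries of mice 1 to 4 and 203, 261, 292 and 258 CPM with vehicle, so mice 2 and 4 were high and the groups overlapped (log2 fold change 0.50 ± 0.18, adjusted p = 0.0379). The *Gpx4* call was lost without mouse 1 (adjusted p = 0.0637), mouse 2 (adjusted p = 0.202) or mouse 4 (adjusted p = 0.266). *Slc7a11* had 26.2, 11.6, 29.1 and 12.3 CPM, low in the same 2 mice (-0.49 ± 0.19, adjusted p = 0.0553), and without mouse 3 it passed (-0.80, adjusted p = 0.0163). *Slc3a2* had 233, 332, 252 and 390.1 CPM, again with mice 2 and 4 apart (0.39 ± 0.15, adjusted p = 0.0508), and without mouse 1 it passed (0.57, adjusted p = 0.0136). *Gss*, not called (0.39, adjusted p = 0.216), passed without mouse 1 (0.74, adjusted p = 0.00828).

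These 2 libraries carried a trend with transcript length over all genes. The Spearman correlation of a gene's deviation from the vehicle mean with its transcript length was -0.583 and -0.623 in mice 2 and 4 and -0.287 and -0.364 in mice 1 and 3, over genes of 1 library each, which are not independent replicates. *Gpx4* has the shortest transcript of the 7 (959 nt) and deviated by 0.74 and 1.06 on the log2 scale in mice 2 and 4. *Slc7a11* has the longest (9226 nt) and deviated by -1.23 and -1.15. With the trend removed the change of *Gpx4* was -0.11 (adjusted p = 0.408) and that of *Slc7a11* 0.003 (adjusted p = 0.989). When these 2 libraries were left out *Gpx4* changed by 0.01 (adjusted p = 0.972) and *Slc7a11* by -0.08 (adjusted p = 0.772). *Slc3a2* and *Gss* were then at 0.07 (adjusted p = 0.752) and -0.11 (adjusted p = 0.813), and with the trend removed at 0.25 (adjusted p = 0.134) and 0.10 (adjusted p = 0.738). The effect of EVs on *Slc7a11* was lower in fibroblasts than in Epcam+ cells (difference -0.58 ± 0.20, adjusted p = 0.0367), 1 of 7 members where 23.8% of genes passed. With the trend removed this difference was -0.08 (adjusted p = 0.811), and without those 2 libraries it was -0.17 (adjusted p = 0.625). It was also lost without mouse 1 (adjusted p = 0.0958), mouse 2 (adjusted p = 0.134) or mouse 4 (adjusted p = 0.256).

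**Figure D3:**
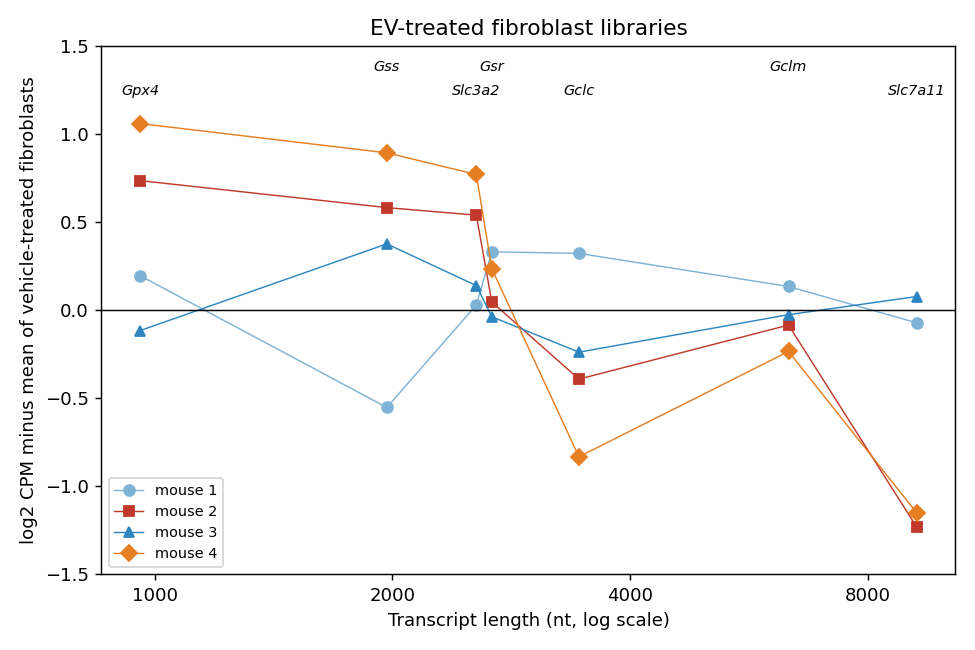
Deviation of each member in the 4 EV-treated fibroblast libraries from the mean of vehicle-treated fibroblasts (y axis, log2 CPM) against transcript length (x axis, nt, log scale), with 1 line for each mouse. Mice 2 and 4 run from above 0.7 at *Gpx4* to below -1.1 at *Slc7a11*, and mice 1 and 3 stay within 0.2 of 0 at both genes.

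A direct comparison shows whether OGN differs from the secretome fractions. In Epcam+ cells *Slc7a11* was higher with OGN than with EVs (log2 fold change 0.86 ± 0.08, adjusted p = 2.76e-07), 1 of 7 members where 2.22% of genes passed. Against SFs, *Slc7a11* (0.47 ± 0.08, adjusted p = 0.00169) and *Slc3a2* (0.38 ± 0.07, adjusted p = 0.00627) were higher with OGN, 2 of 7 where 1.91% passed. Neither pair of groups overlapped. Against SFs the call of *Slc7a11* was lost in 1 of 13 alternatives, the model over all 32 libraries (adjusted p = 0.0778). That of *Slc3a2* was lost in 5, among them the fits without mouse 1 (adjusted p = 0.0583) and without mouse 3 (adjusted p = 0.0784). By mean level the order of *Slc7a11* in Epcam+ cells was OGN, SFs, EVs and vehicle, and the last 2 overlap within their spread. The libraries with SFs and EVs also overlap, with mouse 1 at 157 CPM with EVs and mouse 2 at 153 CPM with SFs. SFs were not tested against EVs.

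In fibroblasts *Slc7a11* was higher with OGN than with SFs (1.31 ± 0.18, adjusted p = 0.000679) and than with EVs (2.14 ± 0.19, adjusted p = 7.84e-06), without overlap in either. With the length trend removed, the difference of *Slc7a11* between OGN and EVs was smaller, at 1.69 (adjusted p = 1.35e-07). *Gclc* was higher with OGN than with SFs (0.66 ± 0.12, adjusted p = 0.00742) and EVs (0.78 ± 0.13, adjusted p = 0.00078). That made 2 of 7 members against SFs, where 2.79% of genes passed. Against EVs it was 3 of 7, where 37.6% passed, with *Gpx4* lower (-0.61, adjusted p = 0.016). The *Gclc* call against SFs was lost without mouse 2 (adjusted p = 0.074), without mouse 3 (adjusted p = 0.0906) and without the replicate block (adjusted p = 0.165). *Gpx4* against EVs was 0.02 (adjusted p = 0.881) with the length trend removed, and was not called without mouse 2 (adjusted p = 0.161) or mouse 4 (adjusted p = 0.132).

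The chains of the carrier and the subunits of the ligase were also compared within a library, where library size cancels. The ratio of *Slc7a11* to *Slc3a2* per length was 0.186 in vehicle-treated and 0.275 in OGN-treated Epcam+ cells, and 0.0337 and 0.0988 in fibroblasts (geometric means of 4). The log2 ratio was higher than with vehicle by 0.56 with OGN (exact permutation test, two-sided, p = 0.0571) and by 0.46 with SFs (exact p = 0.0571) in Epcam+ cells. In fibroblasts it was higher by 1.55 with OGN and by 0.45 with SFs (exact p = 0.0286 for each, the smallest that 4 against 4 libraries allow). All 4 of these differences had the same sign in 4 of 4 mice, and with EVs the difference was -0.96 in fibroblasts (lower in 4 of 4 mice, exact p = 0.171) and -0.085 in Epcam+ cells (exact p = 0.686). A trend with transcript length does not cancel in this ratio. In EV-treated fibroblasts of mice 2 and 4 *Slc7a11* deviated from the vehicle mean by -1.23 and -1.15, and *Slc3a2* by 0.54 and 0.77. In mice 1 and 3 the deviations were -0.07 and 0.08 for *Slc7a11*, and 0.03 and 0.14 for *Slc3a2*. The part of the length trend in the -0.96 was not tested. The log2 ratio of *Gclm* to *Gclc* was lower in 4 of 4 mice in 3 comparisons, with OGN in Epcam+ cells (-0.35, exact p = 0.143), with SFs in Epcam+ cells (-0.40, exact p = 0.0857) and with OGN in fibroblasts (-0.49, exact p = 0.0857). These tests do not use the pairing of libraries by mouse, and an exact sign flip test over the 4 mice, added once the values were known, cannot give a p below 0.125. Over the 12 ratio comparisons none passed after Benjamini-Hochberg adjustment, and the lowest adjusted p in these exact permutation tests was 0.171.

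Other genes of cysteine and glutathione metabolism were read from 9 lists, of which 112 of 136 genes were in the table. In OGN-treated Epcam+ cells 4 of the 112 were lower and none higher, which is 3.57% beside the 2.7% called over all genes, and the median log2 fold change of the listed genes was 0.00, as it was over all genes. Those 4 were *Gstm1* (-0.45, adjusted p = 0.00397), *Gstm2* (-0.45, adjusted p = 0.0124) and *Gsta3* (-0.54, adjusted p = 0.00456), which are glutathione S-transferases, and *Nqo1* (-0.57, adjusted p = 0.0373), a quinone reductase and NRF2 target. *Nqo1* had 54.9, 46.9, 43.7 and 46.3 CPM with vehicle and 27.8, 30.4, 35.6 and 34.7 CPM with OGN, without overlap. The transferases have near-identical copies in the genome, so reads may be split among them and their values are uncertain. The summed level of 4 airway markers (*Scgb1a1*, *Foxj1*, *Krt5*, *Trp63*; all in the table) was between 2391 and 3622 CPM in vehicle-treated Epcam+ libraries and between 1254 and 2633 CPM with OGN, and its part in these 4 decreases was not tested. All 4 calls were lost without mouse 1, whose vehicle-treated library stood apart in *Sftpc*, with adjusted p of 0.146 for *Gstm1*, 0.247 for *Gstm2*, 0.0784 for *Gsta3* and 0.313 for *Nqo1*. *Nqo1* was also not called without any other single mouse (adjusted p between 0.0526 and 0.0939). In bulk libraries fewer cells of a type and less RNA per cell cannot be told apart.

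In OGN-treated fibroblasts 6 listed genes were higher and 2 lower of 111 tested, which is 7.21% beside the 4.56% called over all genes. *Chac1*, which degrades glutathione and is a target of ATF4, had 22.3, 23.0, 13.7 and 15.1 CPM with vehicle and 8.61, 8.51, 6.77 and 8.55 CPM with OGN (log2 fold change -1.17, adjusted p = 0.00424), and all 13 alternatives called it. *Glrx*, glutaredoxin, went from 30.9, 35.4, 41.0 and 32.2 to 49.4, 52.8, 53.3 and 55.1 CPM (0.59, adjusted p = 0.00818), and *Mgst1*, a microsomal transferase, rose by 0.49 (adjusted p = 0.0311). *Nadk*, which makes NADP from NAD, rose by 0.47 (adjusted p = 0.00246), *Gch1*, the first enzyme of tetrahydrobiopterin synthesis, by 0.70 (adjusted p = 0.0226), and *Slc25a10*, a mitochondrial dicarboxylate carrier, by 0.43 (adjusted p = 0.0343). *Gsta1* rose by 1.88 (adjusted p = 0.00363) from at most 1.80 CPM, and *Gstm1* fell by 0.34 on the log2 scale (adjusted p = 0.0322), again within families of near-identical copies. None of these 8 passed the test of a difference in OGN effect between the fractions. Of the 8, *Chac1* and *Gsta1* were called in every alternative that gave a value. Leaving out mouse 2 ended the call of *Nadk* (adjusted p = 0.0803), *Glrx* (adjusted p = 0.0508), *Mgst1* (adjusted p = 0.218), *Gch1* (adjusted p = 0.227), *Slc25a10* (adjusted p = 0.145) and *Gstm1* (adjusted p = 0.213), and all but *Nadk* were also lost without at least 1 other mouse. The highest adjusted p without 1 mouse was 0.0593 for *Glrx*, 0.181 for *Slc25a10* and 0.222 for *Gstm1*. With SFs no listed gene was called in either fraction. With EVs 2 were lower in Epcam+ cells, *Gsta3* (-0.47, adjusted p = 0.0332) and *Gstm1* (-0.39, adjusted p = 0.0315). The summed level of the 4 airway markers was between 1347 and 2429 CPM in EV-treated and between 2391 and 3622 CPM in vehicle-treated Epcam+ libraries. Its part in these 2 decreases was not tested. OGN against EVs did not pass for either gene there (-0.07 and -0.06). In EV-treated fibroblasts 31 of 111 were higher and 11 lower, which is 37.8% beside the 36% called over all genes. Among these, *Gsta1* (1.635), *Gch1* (0.65) and *Mgst1* (0.33) were higher and *Gstm1* (-0.30) lower, the same directions as with OGN. *Chac1*, *Glrx*, *Nadk* and *Slc25a10* were not called with EVs.

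The regulators of these genes did not pass the test with OGN. *Nfe2l2*, which encodes NRF2, changed by -0.02 (95% interval -0.16 to 0.12) in Epcam+ cells and by 0.00 (-0.19 to 0.18) in fibroblasts with OGN. *Keap1*, which holds NRF2 in the cytoplasm, and *Bach1*, a repressor at the same elements, did not pass in either fraction. *Atf4* changed by 0.10 (-0.06 to 0.26) and -0.21 (-0.48 to 0.05). Of the other NRF2 targets, *Hmox1* had 200, 192, 201 and 209 CPM in vehicle-treated and 250.2, 248, 255 and 255 CPM in OGN-treated fibroblasts, without overlap, and missed the threshold (0.33, adjusted p = 0.0556). *Txnrd1* and *Srxn1* did not pass in either fraction. *Slc7a5*, another light chain that pairs with SLC3A2, was at 0.22 (adjusted p = 0.206) in Epcam+ cells and -0.25 (adjusted p = 0.273) in fibroblasts, and *Cth*, which makes cysteine from cystathionine, passed in neither.

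**Figure D4:**
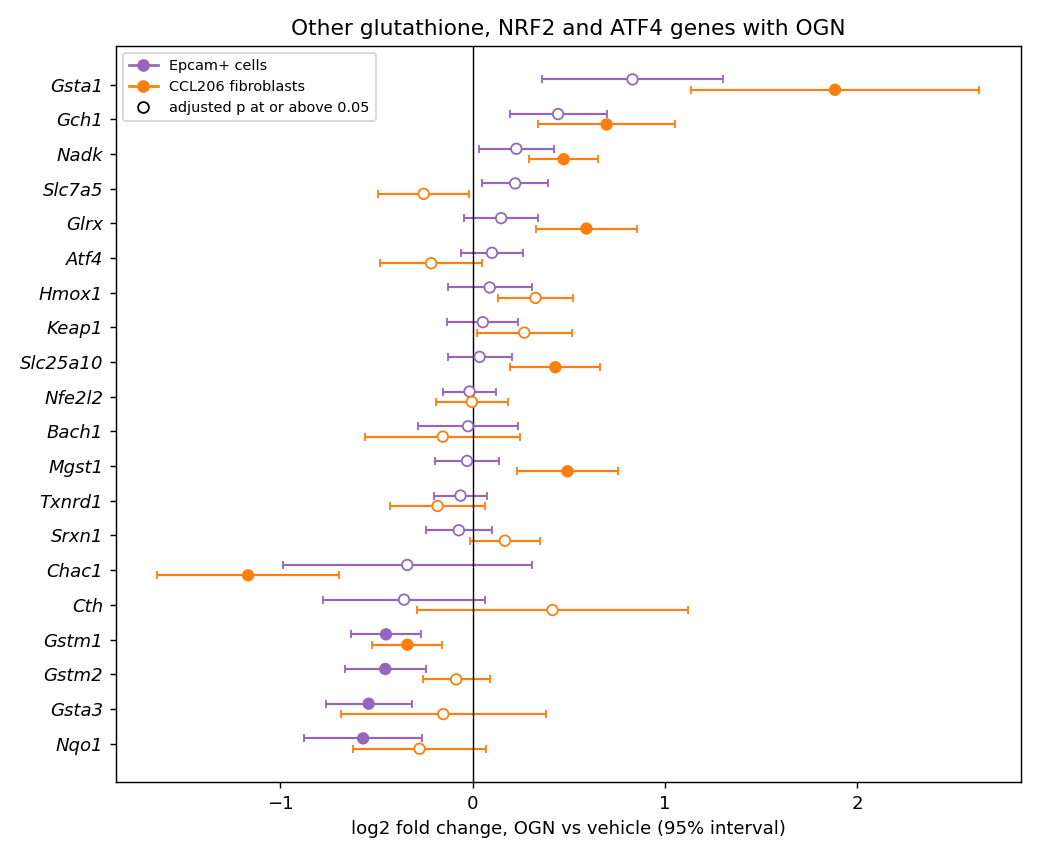
The log2 fold change of OGN against vehicle (x axis, with 95% intervals) for 20 listed genes in Epcam+ cells and CCL206 fibroblasts, ordered by the value in Epcam+ cells, with filled points where the adjusted p is under 0.05. *Chac1* and *Gsta1* in fibroblasts lie farthest from 0, at -1.17 and 1.88, and *Nfe2l2* lies within 0.02 of 0 in both fractions.

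Each member was set beside all other genes by the Pearson correlation of log2 CPM over the 32 libraries, after the mean of each fraction and mouse had been taken off. The libraries share mice, cultures and treatments, so these values are a description. The genes most like *Slc7a11* were *Stom* (0.949), *Syt7* (0.94) and *Ero1a* (0.933). Among the members, *Slc7a11* was most like *Gclc* (0.811), and its value with *Slc3a2*, its partner chain, was -0.147. The 32 libraries include the EV-treated fibroblasts of mice 2 and 4, which carried the length trend. There *Slc7a11* deviated from the vehicle mean by -1.23 and -1.15, *Gclc* by -0.39 and -0.83 and *Slc3a2* by 0.54 and 0.77. The part of these libraries in the correlations was not tested. *Gclc* was most like *Slc39a8* (0.91), *Cpm* (0.906) and *Ctsc* (0.891), and *Gsr* most like *Tmprss4* (0.863), *Gpx2* (0.841) and *Pgd* (0.806). *Gpx4*, with its short transcript, was most like *Rplp1* (0.909), *Lamtor2* (0.899) and *Naxe* (0.882).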

How the data were processed

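The authors trimmed reads with Trimmomatic (v0.30, per the labels) and deposited raw counts per gene without normalization. The labels name GRCm39 and the methods GRCm38 (patch 6), and the aligner and counter are not given in the sources used here. The table lists only genes with 1 count or more in each of the 32 libraries. Genes were kept with filterByExpr, normalized by TMM and tested with edgeR (version 4.0.16, R version 4.3.3) by its quasi-likelihood F test, with Benjamini-Hochberg adjustment over all genes. Treatments were compared over the 16 libraries of a fraction with mouse as a block, effects between fractions over 32 libraries, and vehicle-treated fractions over 8. Each standard error (SE) was obtained from the size of the log2 fold change and the root of its F statistic. CPM values use TMM, and log2 CPM a prior count of 2.

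The same mouse number marks the same animal per the labels, so the numbers pair the libraries. Deviations from group means correlated on average between 0.01 and 0.225 within a mouse and between -0.07 and -0.003 between mice, over 12 pairs of groups. In all 48 replicate pairs counts differed by more than counting error.

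Transcript lengths came from GENCODE (Ensembl canonical transcripts, 11621 of 11818 genes, 98.3%), in place of the RefSeq lengths first planned, and promoters from RefSeq. Members and lists were chosen with earlier results of these data known. The other genes given are up to 3 per list with the smallest p among those called with OGN in a fraction, and 11 regulators and targets given in every case. P-values measure the spread between 4 cultures, which differ in the mouse that gave the epithelial cells and share 1 fibroblast line. On simulated data, OGN against vehicle in Epcam+ cells recovered 94 of 100 genes changed 2-fold, with 9 other calls among 11666 genes, and in fibroblasts 91 of 100. The test of a difference in OGN effect between the fractions recovered 69 of 100. The simulated counts had 1 common spread for all genes and no mouse effect or length trend, so they were simpler than the real data. Alternatives were another normalization, other filters, DESeq2, other sets of libraries, removal of the length trend and leaving out each mouse.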

Additional observations from a re-analysis of the deposited data

Results flagged for a closer look

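*Slc7a11* in SF-treated Epcam+ cells had its lowest library in mouse 2, at 152.9 CPM, far below the 3 others of that group, which lay between 180.1 and 184 CPM (gap over range 0.87). *Gclm* in vehicle-treated fibroblasts had its highest library in mouse 1, at 93.1 CPM, with the 3 others between 83.7 and 85.2 CPM (gap over range 0.839). These are 2 of 56 groups tested in this way, and chance alone is expected to mark about 1 in 20.

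The effect of EVs on *Slc7a11* differed between the fractions by -0.58 on the log2 scale (edgeR, adjusted p = 0.0367), with EV-treated fibroblasts of mice 2 and 4 at 11.6 and 12.3 CPM. The length trend of these 2 libraries is given beside the result, and without them the difference was -0.17 (adjusted p = 0.625).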

How the results depend on the processing

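For the 7 members 1211 values were computed under alternatives. Of these, 1137 kept their direction and side of the threshold or were not called on either side, 35 lost a call, 36 gained one and 3 reversed. The reversed ones came with the length trend removed, in EV-treated fibroblasts: *Gclm* against vehicle 0.28 (adjusted p = 0.0421), *Gpx4* against vehicle -0.11 (adjusted p = 0.408) and *Gpx4* with OGN against EVs 0.022 (adjusted p = 0.881). Of 518 values for other listed genes, 33 lost and 20 gained a call. The calls of *Slc7a11* for OGN against vehicle held in every alternative fit in both fractions. The subtraction of the epithelial share was not a fit and gave no call.

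The number of members called moved by over 1.5 times as follows. Without the replicate block it was 0 for SFs in Epcam+ cells (1 with it), 1 for OGN in fibroblasts (2), 1 for OGN against SFs in Epcam+ cells (2), 1 for the same in fibroblasts (2) and 0 for the difference in EV effect (1), and no other count moved by that much without it. In 1 model over all 32 libraries it was 1 for OGN and 0 for SFs in Epcam+ cells, 0 for OGN against SFs in Epcam+ cells and 4 for EVs in fibroblasts. DESeq2 called 2 for SFs in Epcam+ cells, 3 for EVs in fibroblasts, 3 for OGN against EVs in Epcam+ cells and 1 for the difference in OGN effect. For EVs in fibroblasts the count was 2 with RLE size factors, 2 with at least 10 counts in every library, and 0 with only the 8 libraries compared or when the EV-treated libraries of mice 2 and 4 were taken out of the fibroblast data. Taking them out also ended the difference in EV effect (0 called). With only the 8 libraries compared, OGN against SFs in Epcam+ cells gave 1. With the 16 libraries compared, the differences in OGN, EV and SF effect gave 1, 0 and 1, and with the length trend removed the difference in OGN effect gave 1. The cause was not tested, apart from fewer libraries where some were left out.

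Leaving out 1 mouse at a time gave 0 to 1 called for SFs in Epcam+ cells, 1 to 2 for OGN in fibroblasts, 0 to 2 for EVs in fibroblasts, 1 to 2 for OGN against SFs in either fraction, 2 to 4 for OGN against EVs in fibroblasts, 0 to 2 for the difference in EV effect and 5 to 7 between vehicle-treated fractions. The log2 ratio of *Slc7a11* to *Slc3a2* was then higher with OGN than with vehicle by 0.50 to 0.61 in Epcam+ cells and by 1.45 to 1.66 in fibroblasts. With 3 against 3 libraries their permutation test cannot give an exact p below 0.1. In the added exact sign flip test over mice (a replicate block for the ratios) none of the 12 ratio comparisons had a p below 0.125, the smallest it can give. Epithelial RNA in the fibroblast fraction limits the fibroblast values of the members.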
